A study of Mus musculus with 16 samples.

Results

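The 10 genes described here belong to the mammalian circadian clock and its direct outputs: Arntl, Clock, Npas2, Per1, Per2, Per3, Cry1, Cry2, Dbp and Ciart. They were chosen by symbol, and all 10 were found among the 52459 genes of the count table. They were measured in cells labelled Mesenchymal Stem Cells (MSCs), sorted from digested bone marrow of Townes Sickle mice without CD45, Ter119 or CD31 and with CD51 and CD140a on their surface. Of the 8 libraries, 4 came from SS and 4 from SA mice. As general knowledge of this knock-in model, human alpha globin replaces the mouse alpha genes in both, both beta globin loci of SS mice carry human A-gamma and sickle beta globin, and SA mice have 1 sickle and 1 normal human beta globin allele. Both genotypes thus lack mouse adult globin genes, and neither is free of the sickle gene. The sources used here do not give the age or sex of the mice or the hour at which marrow was taken.

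The clock is a feedback loop of transcription. ARNTL (also called BMAL1) pairs with CLOCK or its relative NPAS2 and switches on genes that carry E-box sequences, among them the Period and Cryptochrome genes, whose proteins return to the nucleus and shut the pair off. Arntl RNA normally peaks at a time of day when Dbp and Period RNA is low, and the level of a clock gene in a tissue depends on the hour of sampling. DBP is an activator that binds D-box sequences, and CIART is a further repressor of the ARNTL pair. Bone marrow stromal cells are known to follow a daily rhythm in their signals to blood stem cells.

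Sequences of the kind the clock acts through can be looked for in front of the genes. RefSeq promoter windows on GRCm38.p6, from 250 bases before to 50 after each start site, were at hand for 9 of the 10 genes, not for Per2. They were searched on both strands for the E-box CACGTG, the D-box as TTATGTAA or TTATGCAA, and TAGGTCA, the core of the element bound by the nuclear receptors of the clock. None of these 3 motifs overlap in the windows printed. Among all 32851 windows, 7.15% held the E-box, 1.66% the D-box and 2.61% TAGGTCA. Per3, Cry1 and Ciart are shown because their levels differed most between libraries among the genes with matches. The 250 bases before the start site are printed 5′ to 3′ on the gene's strand, with E-boxes and D-boxes in capitals. Per3 lies at chr4:151044666-151044915, Cry1 at chr10:85185055-85185304 and Ciart at chr3:95882229-95882478, all on the minus strand.
Per3: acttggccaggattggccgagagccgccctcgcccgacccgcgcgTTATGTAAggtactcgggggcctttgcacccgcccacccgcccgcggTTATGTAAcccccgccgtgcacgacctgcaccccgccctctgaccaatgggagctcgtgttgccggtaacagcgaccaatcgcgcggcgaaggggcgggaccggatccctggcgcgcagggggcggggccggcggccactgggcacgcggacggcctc
Cry1: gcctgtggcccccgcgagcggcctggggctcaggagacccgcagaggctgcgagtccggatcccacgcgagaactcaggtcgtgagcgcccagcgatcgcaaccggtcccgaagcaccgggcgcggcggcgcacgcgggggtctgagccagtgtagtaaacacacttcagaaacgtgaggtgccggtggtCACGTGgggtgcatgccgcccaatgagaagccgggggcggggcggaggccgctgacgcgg
Ciart: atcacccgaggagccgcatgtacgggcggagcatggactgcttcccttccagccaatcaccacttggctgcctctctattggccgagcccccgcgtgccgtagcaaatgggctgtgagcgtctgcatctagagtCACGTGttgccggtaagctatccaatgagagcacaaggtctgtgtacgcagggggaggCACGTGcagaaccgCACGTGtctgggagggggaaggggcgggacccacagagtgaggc
Ciart held 3 E-boxes, Cry1 held 1, and Per3 held 2 D-boxes and no E-box. Of the others, 1 window of Per1 held 1 E-box and 1 D-box, and 1 window of Arntl held TAGGTCA 30 bases past the start site. The windows of Clock, Npas2, Cry2 and Dbp held none of these letters. A match describes the sequence and is not evidence of binding.

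The libraries held 24797857 to 31117007 counts. Titles and column names carry date-like numbers, whose meaning is not given: 10-19 for all 4 SA libraries, 10-22 for SS replicates 1, 3 and 4, and 10-28 for SS replicate 2. Genotype and these numbers therefore cannot be told apart. SS replicate 2 also stood apart in 57347 counts of Xist, against at most 420 elsewhere, and in 12 counts of the Y-linked gene Ddx3y, against at least 2282. By these counts SS replicate 2 came from a female and the other libraries from males, which no label states. Within SS, sex and the number 10-28 thus cannot be told apart. One lane of SS replicate 4 is labelled SA in 2 fields and SS in its title, and was kept in SS. Pdgfra, which encodes CD140a, was at 169 to 476 CPM (counts scaled to library size) in SA and 331 to 481 CPM in SS, and Itgav, which encodes CD51, at 252 to 427 and 389 to 821 CPM. Leukocyte RNA was present despite the CD45 gate: Ptprc, which encodes CD45, ranged from 125 to 748 CPM in SA and 49.7 to 499 CPM in SS. The summed level of 15 pan-leukocyte genes ranged from 806 to 4845 CPM in SA and from 367 to 2857 CPM in SS, highest in SA replicates 1 and 2 and SS replicate 1, and none of the 15 was at 0 in any library. Pecam1, which encodes CD31, fell between 4.23 and 44.9 CPM in SA and between 0.833 and 31.4 CPM in SS.

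All 10 are annotated as protein coding in GENCODE M21 on GRCm38. The activators lie at chr7:113207465-113314126 (Arntl, plus strand), chr5:76209868-76304792 (Clock, minus) and chr1:39193731-39363236 (Npas2, plus). The Period genes lie at chr11:69095217-69109960 (Per1, plus), chr1:91415982-91459324 (Per2, minus) and chr4:151003652-151044665 (Per3, minus), and the Cryptochromes at chr10:85131700-85185064 (Cry1, minus) and chr2:92403646-92434043 (Cry2, minus). Dbp is at chr7:45705088-45710203 (plus) and Ciart at chr3:95878503-95882251 (minus).

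All 10 clock genes were detected in every library and passed the filter on low counts. Per kilobase of annotated exon, Per1 was the most abundant at 12.2 ± 3.95 CPM per kb (SD, n = 8 libraries), followed by Npas2 at 9.84 ± 3.71, Clock at 7.99 ± 2.23 and Per2 at 5.04 ± 1.76 CPM per kb. Cry2 (3.74 ± 1.42 CPM per kb), Cry1 (3.51 ± 1.73), Arntl (3.11 ± 1.15) and Per3 (2.67 ± 1.34) were close together. Dbp was at 1.83 ± 1.66 and Ciart at 0.347 ± 0.519 CPM per kb. Most neighbours in this order were not separated beyond their spread. Per1 exceeded Npas2 in 6 of 8 libraries, Npas2 exceeded Clock in 5, and Arntl exceeded Per3 in 4. Only between Clock and Per2 was the gap in mean level larger than either SD, and Clock was the higher of them in 6 of 8 libraries.

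Whether these genes differ between SS and SA was tested in a fit of edgeR's quasi-likelihood test over 17316 genes. None of the 10 passed at an adjusted p under 0.05 (smallest 0.695), where 0.0% of all genes tested did. At an unadjusted p under 0.05 there was 1 of the 10 (Ciart, lower in SS), against 6.98% of all genes, 4.03% higher and 2.96% lower in SS. DESeq2 called none of the 10 and 1.65% of the genes it tested, 0.926% higher and 0.725% lower. In no clock gene were the SS libraries all above or all below the SA libraries, a separation seen in 3.91% of genes tested, 2.36% higher and 1.55% lower in SS. Fitted fold changes were positive for 6 and negative for 4 of the 10, with a median log2 fold change of 0.05, against -0.01 over all genes tested. With 4 libraries per genotype the 95% intervals were wide, from 0.536-fold to 1.44-fold for Per1 and from 0.674-fold to 6.76-fold for Dbp, so that the test does not show that the levels were alike.

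**Figure D1:**
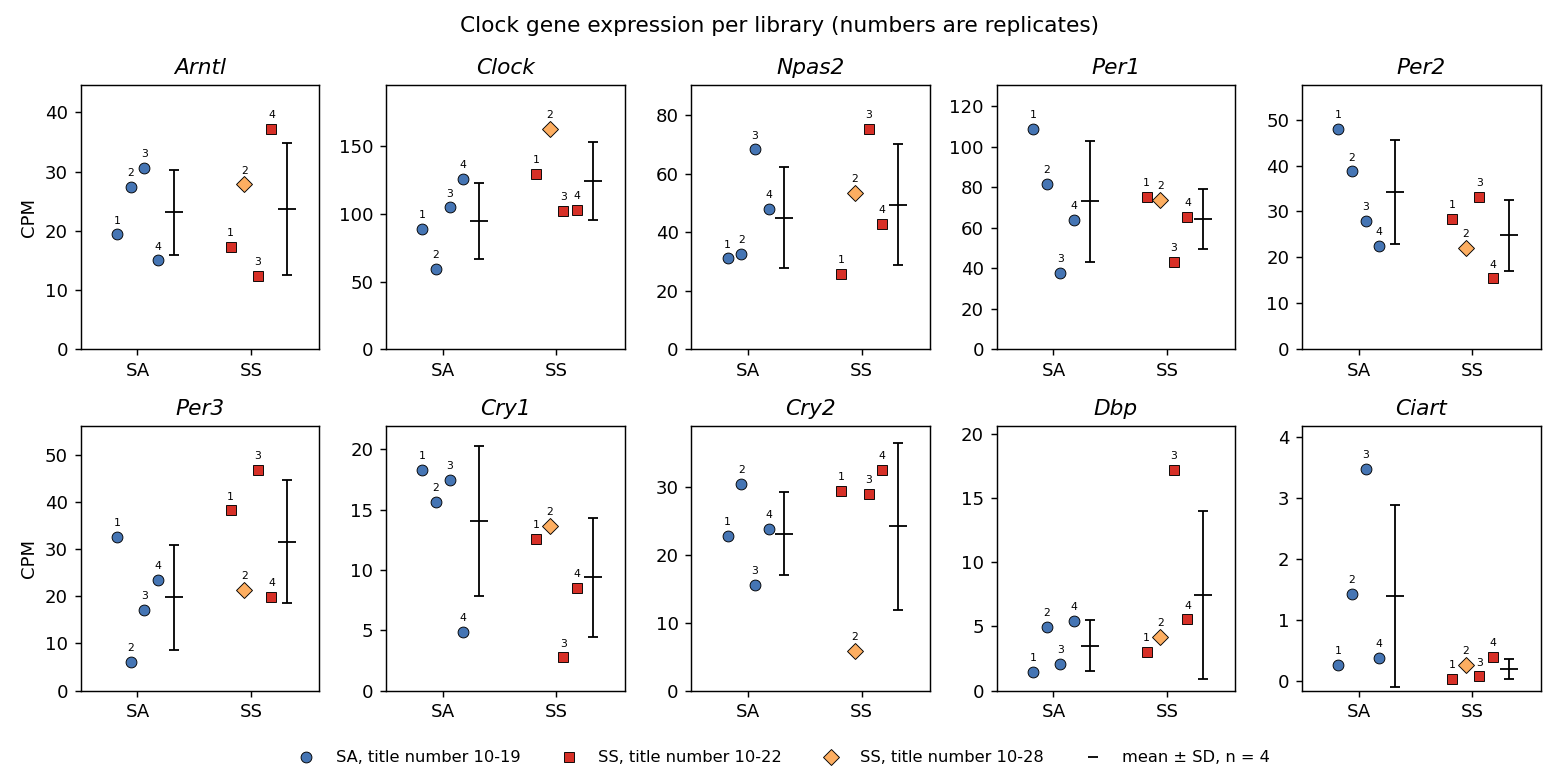
Level of each clock gene in CPM (vertical axes from 0, or just below 0 where the SD bar reaches there) in 4 SA and 4 SS libraries. Points are libraries numbered by replicate, colours and shapes the date-like title numbers, and bars the mean ± SD. The genotypes overlap in all 10 genes, SS replicate 3 is highest for Dbp at 17.2 CPM, and SS replicate 2 is lowest for Cry2 at 5.90 CPM.

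None of the 3 genes of the activating arm passed the test. Arntl, the partner without which the loop stops, was at 19.4, 27.5, 30.6 and 15.0 CPM in SA replicates 1 to 4 and at 17.2, 27.8, 12.3 and 37.2 CPM in SS replicates 1 to 4. The lowest and the highest of the 8 were both SS libraries. The SA mean was 23.1 ± 7.16 CPM and the SS mean 23.7 ± 11.1 CPM (log2 fold change 0.03, SE 0.41, edgeR adjusted p = 0.993). Clock, which encodes the DNA-binding partner of ARNTL, was at 89.0, 59.3, 105 and 126 CPM in SA and at 130, 163, 102 and 103 CPM in SS. SA replicate 2 was lowest and SS replicate 2 highest, with the other 6 between 89.0 and 130 CPM (log2 fold change 0.39, SE 0.26, edgeR adjusted p = 0.777). Without SS replicate 2 the value was 0.24, without SA replicate 2 it was 0.22, and in the 5 libraries poor in leukocyte RNA it was 0.08. Npas2, which can stand in for CLOCK, was at 31.02, 32.7, 68.2 and 47.99 CPM in SA and at 25.9, 53.4, 75.2 and 42.8 CPM in SS. Replicate 3 was the highest library of each genotype for Npas2, and the genotype means of 44.98 ± 17.3 and 49.3 ± 20.7 CPM lay within their spread (log2 fold change 0.13, SE 0.37).

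Of the Period genes, which encode the repressors that time the loop, Per1 and Per2 had lower means in SS and Per3 a higher one, each within the spread. Per1, which also responds to glucocorticoids and cell stress, was at 109, 81.7, 37.9 and 63.9 CPM in SA and at 75.1, 73.6, 43.2 and 65.2 CPM in SS. Replicate 3 was the lowest library of both genotypes, and all SS values lay inside the SA range (log2 fold change -0.19, SE 0.32, edgeR adjusted p = 0.934). Per2 was at 47.9, 38.7, 27.9 and 22.5 CPM in SA and at 28.3, 22.1, 33.2 and 15.4 CPM in SS. The genotypes overlapped widely (log2 fold change -0.47, SE 0.35, edgeR adjusted p = 0.792). The highest Per2 values were those of SA replicates 1 and 2, the libraries with the most leukocyte RNA. When the fit included the mean log2 level of the 15 pan-leukocyte genes, the Per2 difference was 0.03 on the log2 scale, and in the 5 leukocyte-poor libraries it was -0.10. Per1 was highest in SA replicates 1 and 2 and SS replicate 1, and its difference was 0.056 and 0.25 in these fits. In these bulk libraries fewer cells of a type and less RNA per cell cannot be told apart. Per3 was at 32.6, 6.01, 17.1 and 23.4 CPM in SA and at 38.2, 21.4, 46.7 and 20.0 CPM in SS. SA replicate 2 had the lowest level by far, and the log2 fold change of 0.67 (SE 0.50, edgeR adjusted p = 0.792) was 0.37 without it and 0.43 without SS replicate 3.

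The 2 Cryptochromes, which bind the ARNTL pair and repress it most strongly, each had a library that departed from the rest. Cry1 was at 18.3, 15.7, 17.5 and 4.89 CPM in SA and at 12.6, 13.7, 2.76 and 8.51 CPM in SS. SA replicate 4 and SS replicate 3 were low, with 133 and 78 counts against 264 to 522 in the other 6 libraries. The log2 fold change of Cry1 was -0.58 (SE 0.58, edgeR adjusted p = 0.854), and -0.27 without SS replicate 3. Cry2 was at 22.7, 30.4, 15.6 and 23.7 CPM in SA and at 29.4, 5.90, 28.9 and 32.4 CPM in SS. The 163 counts in SS replicate 2, the library with its own title number and female by its Xist counts, set it apart from 3 SS libraries of nearly equal level. The log2 fold change of Cry2 was 0.06 (SE 0.48, edgeR adjusted p = 0.990) and 0.39 without SS replicate 2.

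Dbp and Ciart, which lie directly downstream of the ARNTL pair, varied most. Dbp had 39, 143, 63 and 148 counts in SA and 85, 115, 486 and 172 counts in SS, which is 1.47, 4.97, 2.11 and 5.45 CPM and 2.99, 4.16, 17.2 and 5.55 CPM. SS replicate 3 was well above every other library, and the other 3 SS libraries lay inside or just above the SA range. Accordingly the log2 fold change of 1.09 (SE 0.75, edgeR adjusted p = 0.786) was 0.28 without SS replicate 3. Ciart was scarce, with 7, 41, 104 and 10 counts in SA and 1, 7, 2 and 12 counts in SS. SA replicates 2 and 3 were high, while SA replicates 1 and 4 lay within the range of the SS libraries. Counts of 1 in SS replicate 1 and 2 in SS replicate 3 are at or under a floor of 3 counts, so its fitted log2 fold change of -2.86 (SE 1.25, edgeR adjusted p = 0.695) rests on few reads. It was -1.87 without SA replicate 3 and -4.51 with the leukocyte covariate.

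Reads of overlapping genes limit some of these values, since no source used here states how strand was handled in counting. Exons of Sphk2, on the opposite strand, cover 18.01% of the exon bases of Dbp. Sphk2 had 277 counts in SS replicate 3, where Dbp was highest, and 181 to 723 elsewhere. Its part in the Dbp level was not tested. The antisense transcript D930015M05Rik covers 4.67% of the exon bases of Cry2 and had 575 counts in SS replicate 4, where Cry2 was highest at 1005 counts, against 3 to 111 elsewhere. Its part in the Cry2 level was not tested. An antisense model covers 0.44% of those of Arntl, and no exon of another annotated gene overlaps the other 7.

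**Figure D2:**
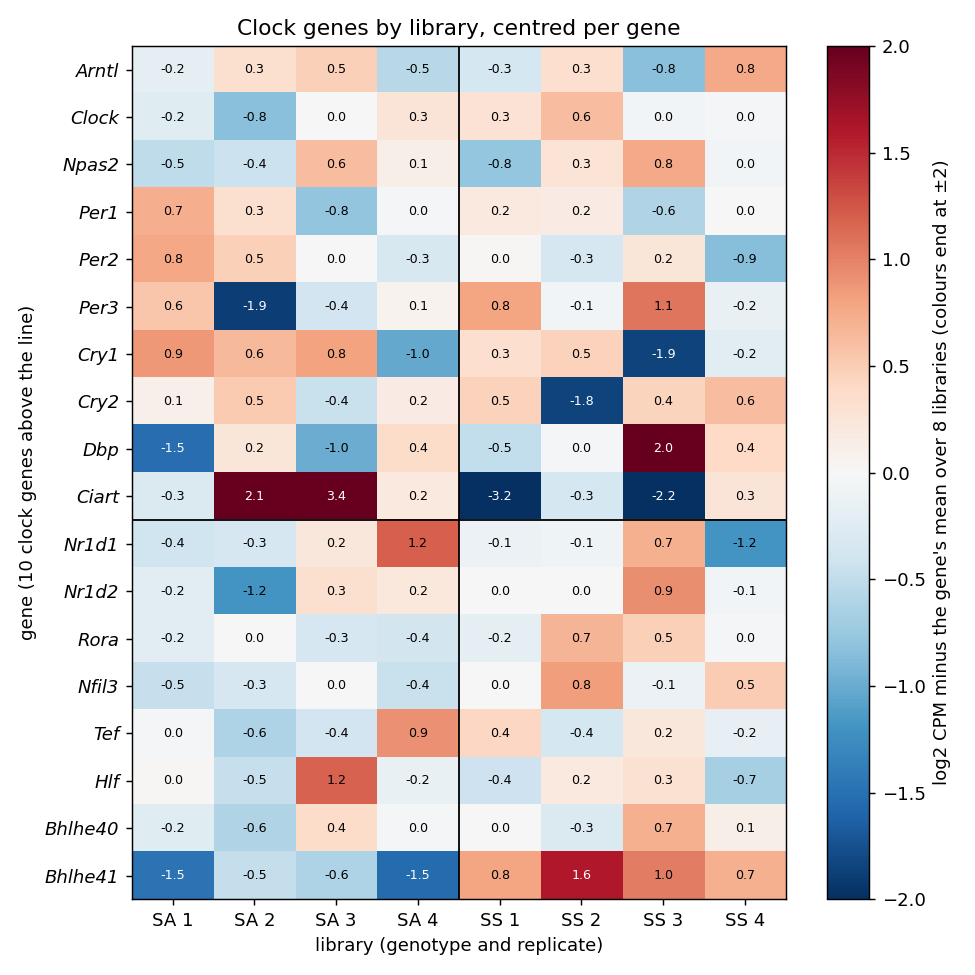
Log2 CPM of the 10 clock genes (above the line) and 8 other clock regulators (below) in each library, minus the mean of that gene over 8 libraries, so that red is above and blue below the gene's own mean. SS replicate 3 is the highest library for Npas2, Per3 and Dbp and the lowest for Arntl and Cry1, and Bhlhe41 is below its mean in every SA library and above it in every SS library.

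Variation between libraries of one genotype exceeded the fitted difference between genotypes for 8 of the 10, all but Dbp and Ciart. The pooled within-genotype SD of log2 CPM ran from 0.40 for Clock to 0.999 for Dbp among the 9 genes with a mean of 5 to 200 CPM, and was 1.32 for Ciart, where low counts add to it. Over the 10938 genes in that band of expression the median SD was 0.59, with quartiles at 0.40 and 0.89. Clock, Npas2, Per1 and Per2 lay below this median, and Cry1 and Dbp above the upper quartile. The spread in Cry2 came from SS, with an SD of 1.17 against 0.40 in SA.

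The number of genes with an extreme value ran from 0 to 5 per library, a spread that was not tested against chance. SS replicate 3 was the highest or the lowest of the 8 for 5 of the 10 genes. SA replicate 1 was so for 4, being the highest for Per1, Per2 and Cry1 and the lowest for Dbp. SA replicate 4 was at neither end for any gene. SS replicate 2, set apart by title number and sex, lay inside the range of the other SS libraries for 7 of the 10. It lay above that range for Clock and Cry1 and below it for Cry2.

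Ratios of 2 clock genes within a library do not depend on how libraries are scaled. The log2 ratio of Dbp over Arntl counts was -3.73, -2.47, -3.86 and -1.46 in SA and -2.52, -2.74, 0.48 and -2.74 in SS. SS replicate 3 was the only library in which Dbp exceeded Arntl, and the ratio spanned 4.33 log2 units over the 8 libraries against a difference of 0.995 between genotype means. For Per3 over Arntl the values were 0.75, -2.19, -0.84 and 0.64 in SA and 1.15, -0.38, 1.92 and -0.90 in SS. SS replicate 3 was again highest, and SA replicate 2 lowest. The ratio of Cry2 over Cry1 ran from -0.17 to 2.28 in SA and from -1.21 to 3.39 in SS, with both ends in SS. Per3 over Per2 came closest to separating the genotypes, at -0.55, -2.69, -0.71 and 0.06 in SA and 0.43, -0.05, 0.49 and 0.37 in SS. The highest SA library, replicate 4, lay above SS replicate 2, and this ratio was not tested. Libraries that share the title number 10-22 (SS replicates 1, 3 and 4) ran from -2.74 to 0.48 in Dbp over Arntl, the full range of the SS libraries. No test was made between the SS title numbers, since 10-28 holds 1 library.

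**Figure D3:**
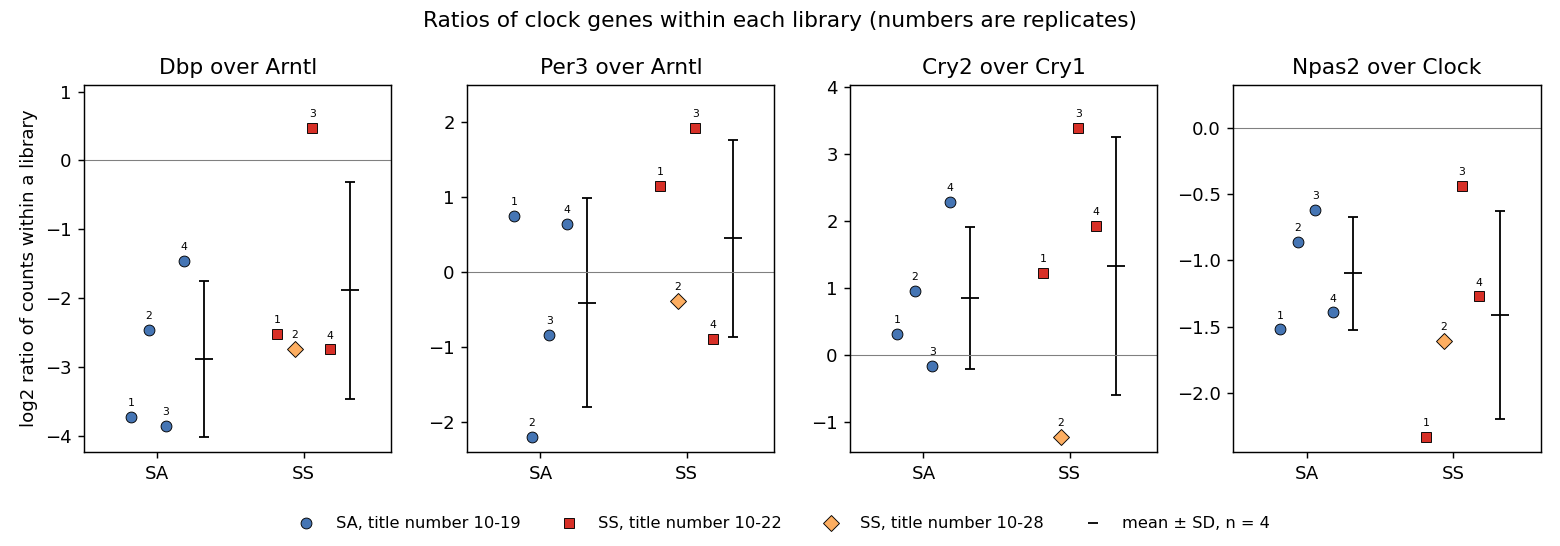
Log2 ratios of the counts of 2 clock genes within each library (vertical axes), for 4 SA and 4 SS libraries numbered by replicate and marked by title number, with mean ± SD. Zero means equal counts. The genotypes overlap in all 4 ratios, and SS replicate 3 is the highest SS library in each.

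Other parts of the clock were read from a list of 31 genes, of which 30 passed the filter (Rorb, at up to 8 counts per library, did not). None of the 30 passed by edgeR, 19 had positive and 11 negative fold changes, and their median was 0.12. At an unadjusted p under 0.05 there was 1, Bhlhe41, which was also the only one without overlap between genotypes and the only one that DESeq2 called. Against the 6.98%, 3.91% and 1.65% of all genes given above for these 3 criteria, 1 gene of 30 is near the background and says nothing about the pathway. Bhlhe41 was to be named whatever its values, and it also had the smallest p of this list. This gene encodes DEC2, a repressor that competes with the ARNTL pair at E-boxes. It was at 3.42, 6.84, 6.23 and 3.28 CPM in SA and at 16.4, 28.9, 19.3 and 15.6 CPM in SS. The lowest SS library was well above the highest SA library, and the means were 4.94 ± 1.86 and 20.0 ± 6.11 CPM. The log2 fold change was 2.02 (SE 0.44, 95% interval 1.04 to 2.99), with an adjusted p of 0.415 by edgeR and 0.000254 by DESeq2. It was 1.97 with the leukocyte covariate, 2.16 in the 5 leukocyte-poor libraries and 1.79 without SS replicate 2. Its RefSeq promoter window held 1 E-box. The unconfirmed model Gm43909 covers 19.0% of its exon bases from the other strand and had at most 7 counts. Pericyte and smooth muscle genes were likewise higher in SS for 9 of 10. DESeq2 called 3 of the 10 higher, against 0.926% of the genes it tested, and edgeR called none. In 2 of the 10 the genotypes did not overlap, both higher in SS, against 2.36% of all genes tested. The summed levels of the 10 did not overlap, at 657 to 838 CPM in SA and 1314 to 6575 CPM in SS. The upper end was SS replicate 4 alone, with SS replicates 1 to 3 at 1314 to 1798 CPM. Among these genes Cnn1 alone was at 0 in any library (replicate 1 of each genotype), and their part in the Bhlhe41 difference was not tested. B cell genes went the other way, with 12 of 12 lower in SS. DESeq2 called 6 of the 12 lower, against 0.725% of the genes it tested, and edgeR called none. The summed levels of the 12 did not overlap, at 508.5 to 1613 CPM in SA and 397 to 421 CPM in SS. Log2 fold changes in this list ran from -4.77 to -0.05 (median -3.13), so the sums do not stand for each gene alike. In 3 of the 12 the genotypes did not overlap, all lower in SS, against 1.55% of all genes tested. The median was -0.91 with the leukocyte covariate and -1.51 in the 5 leukocyte-poor libraries. The 15 pan-leukocyte genes and 15 neutrophil genes were also all lower in SS. Of the 12 B cell genes, 4 were at 0 in at least 1 library. The part of the B cell genes in the Bhlhe41 difference was not tested either. Bhlhe40, which encodes the related repressor DEC1, ranged over 41.7 to 81.3 CPM (SA) and 51.8 to 103 CPM (SS), with overlap (log2 fold change 0.26, SE 0.29).

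The second loop of the clock, in which the REV-ERB receptors repress Arntl and the ROR receptors activate it, also did not pass. Nr1d1, which encodes REV-ERB-alpha, measured 49.03, 51.5, 76.2 and 149 CPM in SA and 59.8, 60.7, 106 and 28.2 CPM in SS. Its log2 fold change was -0.36 (SE 0.44). SA replicate 4 and SS replicate 3, the highest libraries for Nr1d1, were the lowest of their genotypes for Arntl, and SS replicate 4 was lowest for Nr1d1 and highest for Arntl. The other 5 libraries did not follow this order: SA replicate 3 had the highest SA level of Arntl with more Nr1d1 than SA replicates 1 and 2, and SS replicates 1 and 2 had like levels of Nr1d1 with Arntl at 17.2 and 27.8 CPM. Exons of Thra, on the opposite strand, cover 8.55% of the exon bases of Nr1d1. Nr1d2, which encodes REV-ERB-beta, reached 94.2 CPM in SS replicate 3 with the other SS libraries between 47.6 and 50.1 CPM, against 21.6 to 61.6 CPM in SA (log2 fold change 0.40, SE 0.36). Rora, an activator of Arntl, lay between 81.1 and 105 CPM in SA mice and between 91.7 and 169 CPM in SS mice (log2 fold change 0.50, SE 0.23, edgeR adjusted p = 0.718). Nfil3, a repressor at D-boxes, ranged over 23.3 to 32.5 CPM (SA) and 29.7 to 57.5 CPM (SS) (log2 fold change 0.65, SE 0.30, edgeR adjusted p = 0.716). Tef and Hlf, which bind D-boxes as DBP does, had log2 fold changes of -0.04 (SE 0.38) and -0.39 (SE 0.52). Tef was highest in SA replicate 4 at 51.3 CPM and Hlf in SA replicate 3 at 18.8 CPM, so neither was highest where Dbp was. Among 11 genes of kinases, ubiquitin ligases and the deubiquitinase Usp2, which act on the stability of clock proteins, 8 had positive fold changes. Csnk1d, which encodes casein kinase 1 delta, ranged over 83.9 to 164 CPM (SA) and 73.8 to 116 CPM (SS) (log2 fold change -0.54, SE 0.26, edgeR adjusted p = 0.734).

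**Figure D4:**
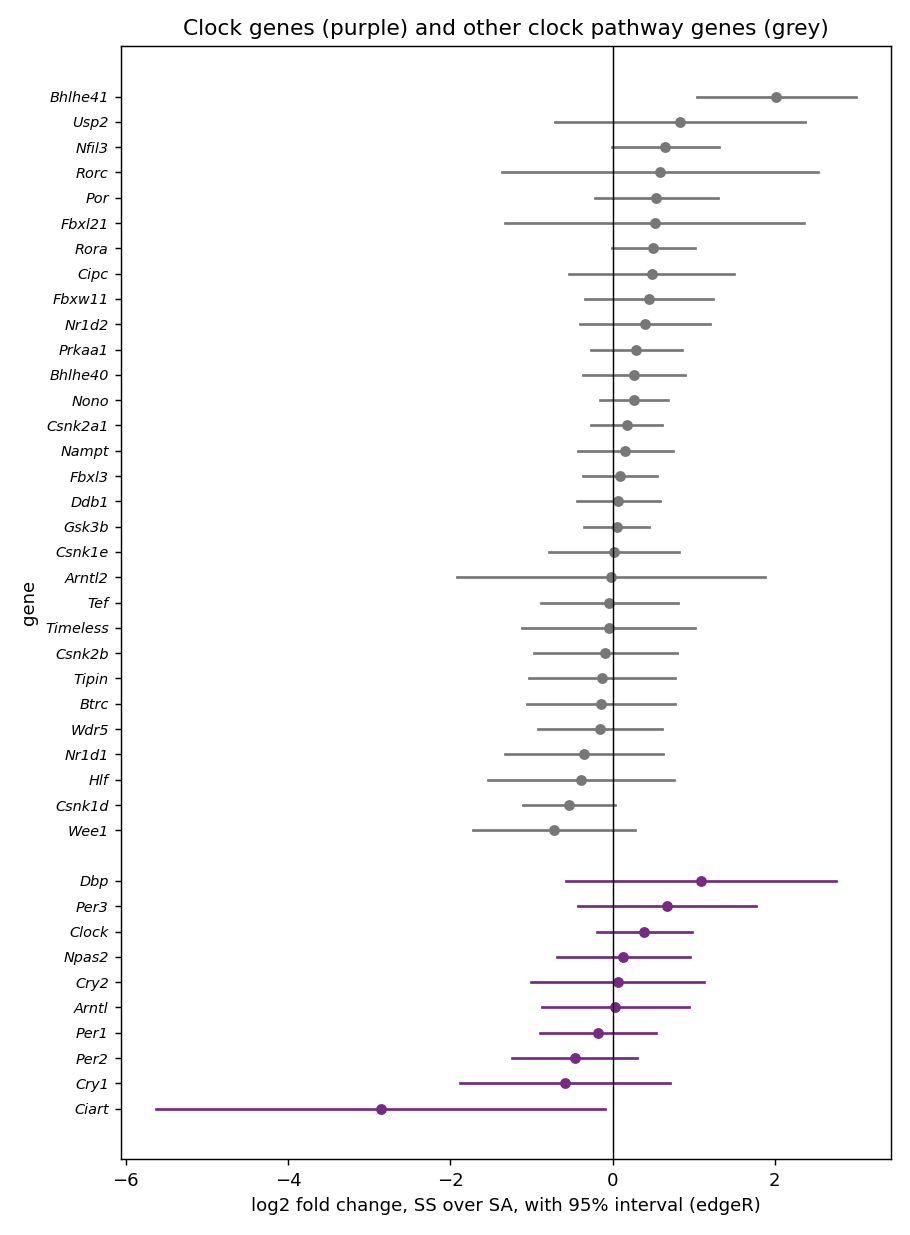
Log2 fold change of SS over SA (horizontal axis) from edgeR with its 95% interval, for the 10 clock genes (purple) and the 30 other clock pathway genes tested (grey). The intervals of Bhlhe41, from 1.04 to 2.99, and of Ciart, from -5.62 to -0.10, leave out 0 before adjustment over all genes, and those of the other 38 include it.

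The genes with the pattern most like that of Arntl were ranked by the root-mean-square difference of centred log2 CPM over the 8 libraries, among 10818 genes of at least 5 CPM. They were Fkbp4 (0.17 log2 units), Bet1 (0.18), Vkorc1l1 (0.19), Pole3 (0.21) and Wdr82 (0.23). For Dbp they were Ntn4 (0.37), CT009718.4 (0.37), Fbxl6 (0.38), Arhgap10 (0.43) and Tmem98 (0.46). The median gene differed from Arntl by 0.75 and from Dbp by 1.11 log2 units. No clock gene was among either set of 5. Npas2 was the clock gene nearest to Dbp, at rank 1037, and Per1 the nearest to Arntl, at rank 4057. Dbp itself was at rank 9489 of 10818 from Arntl. Without SA replicate 4 none of the 5 nearest to Arntl remained, and without SS replicate 3 only 1 of the 5 nearest to Dbp did.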

How the data were processed

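Per the labels, RNA of sorted bone marrow stromal cells was sequenced as 8 numbered libraries on 2 lanes each, giving 16 deposited samples and 1 column per library. The table the authors deposited holds unscaled counts of reads for each gene symbol. Builds mm10 and GRCm38 and the tools featureCounts, STAR, bcl2fastq and DESeq2 are listed in the submitters' processing notes. A second, scaled table was not used. Each numbered library was taken as 1 mouse, which no label states, and if that is wrong the spread behind the p-values may be technical. Total counts were 24797857 to 31117007. These are reads without molecular identifiers, so depth alone gives neither the exact counting error nor the spread between mice.

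SS was compared with SA in edgeR 4.0.16 (R 4.3.3) with filterByExpr, TMM factors, robust quasi-likelihood F tests and Benjamini-Hochberg adjustment over 17316 genes (threshold 0.05). CPM are counts over TMM-adjusted totals, and log2 CPM use a prior count of 2. The SE is the fold change over the root of F. Lengths and positions are from GENCODE M21 (GRCm38). Alternatives were DESeq2 1.42.0, limma-voom (limma 3.58.1), other factors and filters, a replicate block, a leukocyte covariate, 5 leukocyte-poor libraries and leaving out each library. The scripts were tested on simulated data. In counts drawn from the means and dispersions of the edgeR fit, 51 of 168 DESeq2 calls and 2 of 88 edgeR calls were false. There edgeR recovered 2% of the genes changed 2-fold and 36% of those changed 4-fold, and DESeq2 14% and 60%.

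The clock genes and the gene lists were chosen with earlier results of these data known. Named are the 10 clock genes, 8 regulators (Nr1d1, Nr1d2, Tef, Hlf, Nfil3, Bhlhe40, Bhlhe41, Rora), the 4 pathway genes of smallest p, the sort markers, and 5 genes nearest to Arntl and to Dbp. Rorb, Usp2, Cnn1, Sphk2, Thra, Gm43909 and D930015M05Rik were named after their values were seen.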

Additional observations from a re-analysis of the deposited data

Results flagged for a closer look

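Cry2 was at 5.90 CPM in SS replicate 2, far below the 28.9 to 32.4 CPM of the other SS libraries, with a gap of 0.868 of the whole range. Nr1d2 was at 94.2 CPM in SS replicate 3, far above the 47.6 to 50.1 CPM of the others, with a gap of 0.945 of the range. Both gaps exceed Dixon's 95% critical value for 4 libraries. These were 2 of 36 groups examined (18 genes in 2 genotypes), and chance flags about 5% of groups.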

How the results depend on the processing

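The number of clock genes called was 0 under all 17 alternatives, with 0.218 the smallest adjusted p (Ciart by DESeq2). Over all genes DESeq2 called 319, edgeR with no low-count filter called 5, and leaving out 1 library gave 0 to 1 (1 without SS replicate 1). Of the other clock pathway genes DESeq2 called 1, Bhlhe41. Of 169 fold changes of clock genes under alternatives 148 had the direction reported and 21 the opposite one. Clock, Per3, Cry1, Dbp and Ciart kept theirs in each alternative run (Ciart was not tested at 1 CPM in 4 libraries). With the leukocyte covariate Arntl was at -0.33, Npas2 -0.23, Per1 0.056, Per2 0.0294, Pdgfra -0.0227 and Ptprc 0.28. In the 5 leukocyte-poor libraries Npas2 was at -0.0282, Pdgfra at -0.0312 and Per1 at 0.25. By limma-voom Arntl was at -0.0386, Cry2 -0.14 and Tef 0.0699, and with upper-quartile factors Tef was at 0.0018. With 1 library left out Arntl ran from -0.27 to 0.25, Npas2 from -0.14 to 0.39, Per1 from -0.41 to 0.0604, Cry2 from -0.11 to 0.39, Nr1d1 from -0.71 to 0.11, Tef from -0.21 to 0.39 and Hlf from -0.57 to 0.0757. The causes were not tested. The smallest adjusted p of Bhlhe41 by edgeR with 1 library left out was 0.295.

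With the replicate number as a block (replicate block) 0 genes were called, and Arntl was at -0.0414, Cry2 -0.0766 and Tef 0.0706. Deviations of same-numbered libraries correlated at 0.22, -0.15, -0.02 and 0.14, and SA replicate 2 correlated best with SS replicate 1, so the numbers were not taken as pairs. Precision is limited by 4 libraries per genotype, and for Ciart by its 1 to 104 counts per library.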

Other observations

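Levels of 2 further gene groups are given here beside those of Per1. Of 19 immediate early genes, 14 were lower in SS and 5 higher (median log2 fold change -0.25), and none passed by edgeR. This direction turned in alternative fits: the median was 0.20 with the leukocyte covariate and 0.16 in the 5 leukocyte-poor libraries. At an unadjusted p under 0.05 there were 2, both higher in SS, where 4.03% of all genes tested were. No overlap between genotypes was seen in 1, also higher, against 2.36% of all genes tested. Counts this small say nothing about the group. The summed level of the 19 genes was 3973 to 5466 CPM in SA and 2750 to 6808 CPM in SS. It was highest in SS replicate 3 and lowest in SS replicate 2. Per1 was at 43.2 and 73.6 CPM in those libraries, and no relation between them was tested. Of 10 genes induced by glucocorticoids, 8 were higher in SS (median 0.25) and none passed. Of these 10 genes, 1 was at an unadjusted p under 0.05, higher in SS, beside the same 4.03%. Their sum was 864 to 1650 CPM in SA and 1518 to 2475 CPM in SS, lowest in SA replicates 1 and 2, where Per1 and Per2 had their highest levels. Leukocyte RNA was highest in the same 2 libraries. SS replicate 1, the next highest in leukocyte RNA, had a glucocorticoid gene sum of 1777 CPM, above every SA library. Per1 was at 75.1 CPM there. The part of leukocyte RNA in these levels was not tested.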
